A study of Homo sapiens with 4 samples.

Results

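The 10 genes described here encode the regulators around the transcription factor NRF2, and not its metabolic targets. They are NFE2L2 (which encodes NRF2), its relative NFE2L1, the repressor BACH1, the small MAF partners MAFF, MAFG and MAFK, the inhibitor KEAP1 with its ligase scaffold CUL3, and the autophagy receptors SQSTM1 (p62) and NBR1. All 10 were found by symbol among the 26336 genes of the deposited table, and all 10 passed the filter on low values that left 22486 genes for the fit. The cells were MDA-MB-231, a human line of triple-negative breast cancer origin, labelled wild type in both groups. They received either the vehicle DMSO or the code-named compound W23-1006 for 24 h, and the title of the series speaks of an inhibitor of the m6A RNA demethylase ALKBH5. Each group had 2 libraries of polyadenylated RNA. No dose is labelled, and nothing says that a group's libraries were grown separately, so the replicate spread behind each p-value may be purely technical. The genes were chosen by function, and selected on the log2 fold changes of this same contrast in so far as earlier results of these libraries were known. Fold changes of the 10 genes are therefore a description, and the calls and p-values printed with them come from a fit across all genes and carry no added weight.

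NRF2 is made continuously and is normally destroyed: KEAP1 holds it in the cytoplasm and presents it to a ubiquitin ligase built on CUL3. Electrophiles and oxidants modify KEAP1, NRF2 then accumulates, pairs with a small MAF protein and binds antioxidant response elements (AREs) near genes of detoxification and redox balance. BACH1 pairs with the same small MAF proteins, occupies the same elements and represses them, until heme removes it. The cargo receptor p62 binds KEAP1 and carries it to autophagosomes, and SQSTM1 is itself a known NRF2 target. NFE2L1 is tethered to the endoplasmic reticulum and drives proteasome genes. Since NRF2 is controlled mainly through protein stability, the transcript levels reported here do not measure its activity.

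To show what these promoters hold, the 250 bases before each annotated RefSeq start (build GRCh38.p14) were searched on both strands for short motifs, with 19 windows matching 9 of the 10 genes. MAFK had no window and was not searched. The ARE core TGACNNNGC occurred before a start of 2 of these 9 genes, KEAP1 and MAFF, against 13.2% of the 27305 genes with a window. The relaxed form TGANNNNGC, which includes the stricter one, occurred in 6 of the 9 against 40.3% of genes. Of these 6, BACH1 counts only through a window of 32.4% GC that overlapped an exon of the gene. That window was not shown to be a promoter. The 9 genes had more windows each than genes at large, 19 for 9 against 35116 for 27305, which raises a share by gene. By window the ARE core occurred in 2 of 19 against 10.9% of all windows, and the relaxed form in 6 of 19 against 35.2%. The stretches below are a selection from the matches and not all of them, each 5′ to 3′ on the gene's strand with the match in capitals.
KEAP1 ARE core, chr19:10502807-10502836, minus strand, bases -54 to -46 from the start: gacttttattgTGACACGGCgggcgcccgg
KEAP1 ARE core on the other strand, chr19:10502784-10502813, minus strand, bases -31 to -23: cgcccggctctGCTTAGTCAtggtgacctg
MAFF ARE core on the other strand, chr22:38201861-38201890, plus strand, bases -122 to -114: gcttccaggggGCGGGGTCAtacgggggcg
SQSTM1 relaxed core, chr5:179820704-179820733, plus strand, bases -190 to -182: ggggtcagcaaTGAGGGGGCcgggagacct
SQSTM1 relaxed core, chr5:179820755-179820784, plus strand, bases -139 to -131: ggggagagtagTGAAGGGGCctctgcaggg
BACH1 AP-1 type element TGANTCA, chr21:29298862-29298891, plus strand, bases -48 to -42: gcgcggaaggagTGAGTCAcctgaccgctg
MAFF cAMP response element TGACGTCA, chr22:38201929-38201958, plus strand, bases -54 to -47: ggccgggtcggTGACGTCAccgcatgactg
MAFG E-box CACGTG, chr17:81927736-81927765, minus strand, bases -16 to -11: tcatgaatggagccCACGTGaccaaacatc
The AP-1 type element was found in 1 of the 9 genes against 8.06% of genes, the cAMP response element in 1 against 2.03%, and the E-box in 2 (MAFF and MAFG) against 7.73%. By window these were 1 of 19 against 6.57%, 1 of 19 against 1.65% and 3 of 19 against 6.34%. A match is a run of letters and not a shown binding site, and a window without a match says nothing about sites elsewhere.

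Windows of the 2 autophagy receptor genes differed in base composition, and are shown because these genes had the autophagy roles described below. A SQSTM1 window upstream of its outermost start had a GC content of 75.2% and an NBR1 window one of 51.6%, and neither held any of the motifs named above. The GC box GGGCGG, also searched, occurred in 17 of the 19 windows, against 42.6% of all windows. It stands in the SQSTM1 and NBR1 windows shown here. The NFE2L2 window shown with them, at 76.8% GC, held 2 relaxed cores, in capitals. In GENCODE release 29 none of these windows overlapped an exon of its gene. By contrast, the short stretches listed before for KEAP1, MAFF, SQSTM1 and BACH1 come from windows that did overlap an exon of their gene. The MAFG stretch comes from a window that did not.
SQSTM1, chr5:179806143-179806392, plus strand: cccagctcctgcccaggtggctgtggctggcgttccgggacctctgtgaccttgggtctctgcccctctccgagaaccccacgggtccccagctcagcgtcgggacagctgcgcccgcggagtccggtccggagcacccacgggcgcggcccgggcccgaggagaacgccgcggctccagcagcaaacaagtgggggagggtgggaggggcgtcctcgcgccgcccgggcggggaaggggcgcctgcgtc
NBR1, chr17:43170159-43170408, plus strand: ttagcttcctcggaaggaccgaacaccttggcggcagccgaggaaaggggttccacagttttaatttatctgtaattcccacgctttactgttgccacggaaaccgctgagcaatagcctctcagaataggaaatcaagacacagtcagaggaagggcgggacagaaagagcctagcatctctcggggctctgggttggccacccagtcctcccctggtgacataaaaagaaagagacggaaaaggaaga
NFE2L2, chr2:177264132-177264381, minus strand: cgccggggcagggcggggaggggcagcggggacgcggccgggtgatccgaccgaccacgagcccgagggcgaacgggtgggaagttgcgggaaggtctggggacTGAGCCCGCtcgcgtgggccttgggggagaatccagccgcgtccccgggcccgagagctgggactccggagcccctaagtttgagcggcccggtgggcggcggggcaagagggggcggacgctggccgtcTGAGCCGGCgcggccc

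The deposited values are read counts scaled per library. With the smallest value above 0 of each library read as 1 read, gene totals came to 15161460 to 16497283, and the fewest reads of any of the 10 genes in a library were 395 (MAFK), a counting error of 5.03%, against 1.21% for SQSTM1 at its fewest (6866). The 7 listed markers of the line were all expressed, VIM at 21063 to 22495 and AXL at 13169 to 14565. Of the 5 luminal markers in the table ESR1, the oestrogen receptor gene, reached at most 9.64, EPCAM was at 45.4 to 85.8, GATA3 at 175 to 197, FOXA1 at 168 to 236 and ERBB2 at 871 to 1052. Among leukocyte and endothelial markers VWF and CDH5 reached at most 4.82, CD14 was at 7.97 to 11.6 and PECAM1 at 73.5 to 104. The values are relative within each library, scaled by the authors' factors, so less RNA of a kind per cell and fewer cells that carry it cannot be told apart.

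Across the axis, SQSTM1 and BACH1 were called higher with the compound and no member was called lower. These 2 of 10 genes passed the fit (limma on log2(value + 1), Benjamini-Hochberg adjusted p under 0.05, called higher), where 0.694% of all 22486 tested genes were called higher, 1.46% lower and 2.15% in either direction. Among the 6955 genes expressed at least as highly as the lowest member, 2.08% were called higher and 5.85% in either direction. The authors' deposited table gives 3 of the 10 an adjusted p under 0.05, against 2.42% of its genes. With each library's trend by transcript GC content removed (described below), SQSTM1 stayed called (limma adjusted p = 0.000397) and BACH1 did not (0.385). The signs of the log2 fold changes were split, 5 positive and 5 negative, with a median of 0.02 over the 10 genes and -0.01 over all genes tested. The compound libraries lay above both DMSO libraries for 5 genes and below them for 3, so that groups did not overlap for 8 of 10, a common pattern here, since it held for 47.1% of all tested genes (22.1% above, 25.0% below) and 65.6% of genes at this level (36.9% above).

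**Figure D1:**
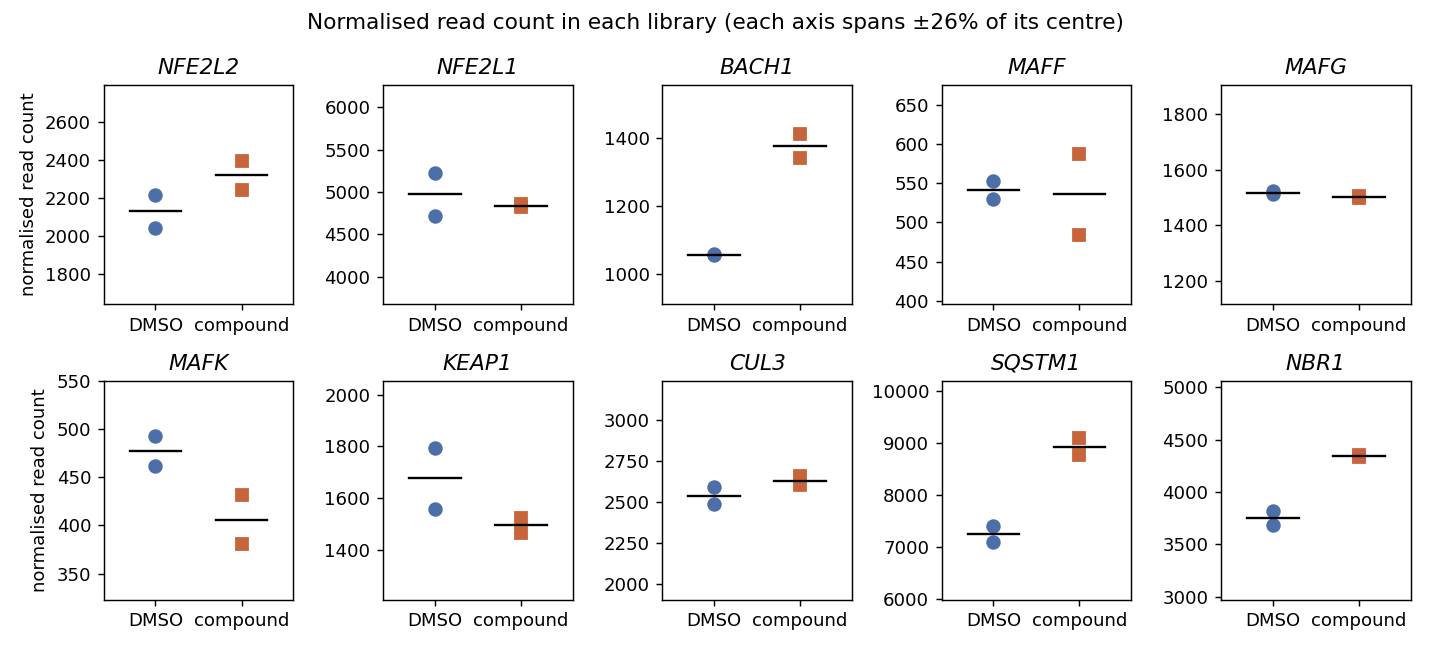
Normalised read count (vertical axes) of each of the 10 genes in the 2 DMSO libraries (circles) and the 2 libraries with the compound (squares), with group means as lines; each axis has its own range, does not start at 0 and covers the same relative span. SQSTM1, BACH1 and NBR1 show the widest separation relative to the gap within groups, while MAFF and NFE2L1 overlap.

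Of the autophagy receptors, SQSTM1 encodes p62, which binds ubiquitinated cargo and KEAP1 and links them to the autophagosome membrane. Its normalised read count was 7392 and 7085 under DMSO, against 9091 and 8760.4 under the compound. Both compound libraries were above both DMSO libraries, and the lowest compound value exceeded the highest DMSO value by more than either group's own gap. The means were 7239 ± 217 and 8926 ± 234 (SD, n = 2 each), a rise of 23.3%, or 0.30 on the log2 scale (SE 0.05; adjusted p = 0.0206 in limma). The authors' deposited table gives 0.30 with an adjusted p of 1.05e-05.

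NBR1, a receptor of related build that works with p62 in clearing ubiquitinated cargo, stood at 3816 and 3685 with DMSO, against 4336 and 4349 with the compound. The compound libraries were nearly equal and above both DMSO libraries. The mean was 15.8% higher, at 3750.5 ± 92.5 and 4342 ± 9.1 (SD, n = 2 each), and the log2 fold change of 0.21 (SE 0.05) missed the threshold (limma adjusted p = 0.0582). In the authors' deposited table NBR1 has a log2 fold change of 0.21 and an adjusted p of 0.0172, under 0.05, so its call differs between the authors' test and limma. Leaving out any of the 4 libraries ended the SQSTM1 and BACH1 calls along with all other calls of the fit (SQSTM1 log2 fold change 0.27 to 0.33, BACH1 0.34 to 0.41, limma adjusted p 0.36 to 0.543 for both). The calls were also lost with no filter, a pseudocount of 0.1 or no mean-variance trend.

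BACH1 encodes the repressor that competes with NRF2 for small MAF partners and AREs. Its normalised read count was 1058 in each DMSO library, and 1411 and 1342 with the compound. The DMSO values differed by 0.057% of their mean, less than the counting error of 3.12% at its fewest reads. The compound group lay above, at 1377 ± 48.5 against 1058 ± 0.426 (SD, n = 2 each). The rise was 30.1%, or 0.38 on the log2 scale (SE 0.07; adjusted p = 0.0232 in limma), and the authors' deposited table gives 0.38 with an adjusted p of 0.00585. This was the largest log2 fold change of the 10 genes before GC correction, above that of 99.5% of the 6955 genes at this level, and SQSTM1 stood above 98.3%. HMOX1, the heme oxygenase gene that BACH1 is best known to repress, was at 129.6 and 151 with DMSO, against 136 and 197 with the compound, so its groups overlapped (log2 fold change 0.23, SE 0.19).

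The activators moved less. NFE2L2 stood at 2216 and 2040.2 with DMSO, against 2242 and 2395 with the compound. The groups did not overlap, but DMSO replicate 1 and compound replicate 1 were almost level. The log2 fold change was 0.12 (SE 0.07) and did not pass (limma adjusted p = 0.382). NFE2L1, which maintains proteasome supply, was at 5221 and 4722 with DMSO, against 4864 and 4818 with the compound. The DMSO libraries lay on either side of the compound libraries, and the log2 fold change was -0.04 (SE 0.06). The gap between the DMSO libraries was wider for NFE2L2, NFE2L1 and KEAP1 than for the other members, at 8.28%, 10.03% and 14.1% of the DMSO mean, with DMSO replicate 1 the higher.

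KEAP1, the sensor that marks NRF2 for destruction, had normalised read counts of 1794 and 1557 with DMSO, against 1522 and 1466 with the compound. Both compound libraries were below both DMSO libraries, by less than the gap between the DMSO libraries. The log2 fold change of -0.16 (SE 0.08) did not pass (limma adjusted p = 0.304). CUL3, the scaffold of the ligase, stood at 2589 and 2486 with DMSO, against 2601 and 2655 with the compound (log2 fold change 0.05, SE 0.06). Its compound libraries were barely above the higher DMSO library.

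The small MAF proteins have no activation domain of their own, and a pair with NRF2 activates where a pair with BACH1 represses. MAFG stood at 1512 and 1524 with DMSO, against 1505 and 1498 with the compound, the tightest of the 10 genes over the 4 libraries, with a log2 fold change of -0.02 (SE 0.07). MAFK stood at 492 and 461 with DMSO, against 431 and 381 with the compound, and its log2 fold change of -0.23 (SE 0.10) did not pass (limma adjusted p = 0.278). For MAFK the compound libraries were lower, and the gap between them was larger than that between the highest compound and lowest DMSO library. MAFF was at 552 and 529 with DMSO, against 587 and 484 with the compound, so that the compound libraries lay on either side of the DMSO pair (log2 fold change -0.02, SE 0.11).

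Levels can be compared between genes per length, as the normalised read count divided by the gene length in kb. SQSTM1 was highest, at 966 and 926 with DMSO, against 1188 and 1145 with the compound, followed by NFE2L1 at 811 to 896 over the 4 libraries. NBR1 (438 to 517), KEAP1 (389.7 to 477) and NFE2L2 (341 to 401) came next, and in that order each overlapped its neighbour over the 4 libraries. MAFG (287 to 292) and CUL3 (216 to 231) followed without overlap. BACH1 was lower, at 137 in each DMSO library and 183 and 174 with the compound. MAFK (85.4 to 110.4) and MAFF (86.2 to 105) were lowest and overlapped. MAFG made up 58.1% to 62.6% of the summed level per length of the 3 small MAF genes in every library, MAFK 18.6% to 22.2% and MAFF 18.8% to 21.4%. Divided by the longest transcript in place of the gene length, SQSTM1, NFE2L1, NBR1 and BACH1 kept their places (4 of 10) and the neighbours KEAP1 and NFE2L2, MAFG and CUL3, and MAFK and MAFF changed places.

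**Figure D2:**
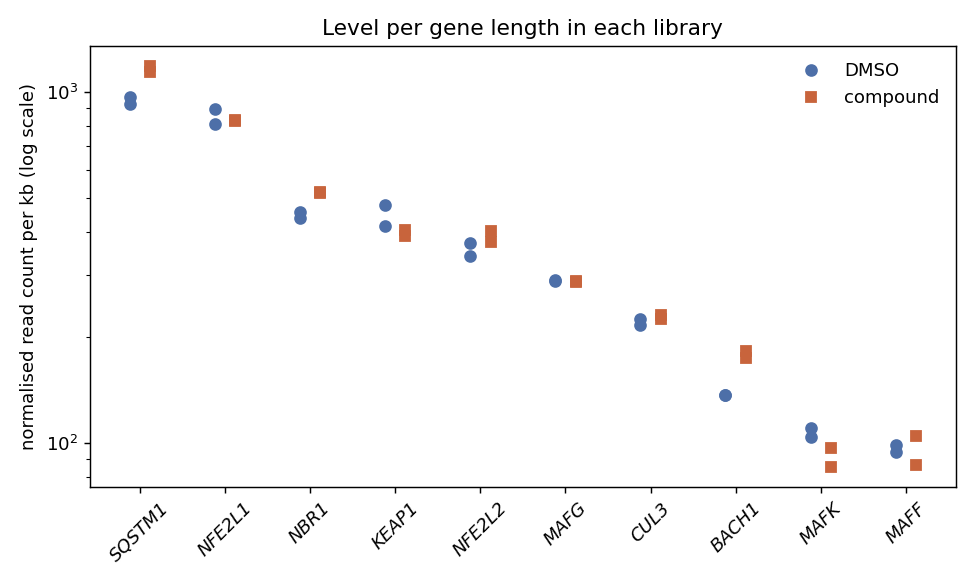
Normalised read count per kb of gene length (log axis) for the 10 genes, ordered by their mean over the 4 libraries, with DMSO libraries as circles and compound libraries as squares. SQSTM1 reaches 1188 and MAFK goes down to 85.4, a wider range than any difference between the groups.

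The fold changes of all genes in these libraries ran with transcript GC content, and the 10 genes cover much of that range, from 37.5% (CUL3) to 63.4% (MAFK). Among genes at this level the median log2 fold change was 0.17 in the decile of lowest GC content and -0.25 in the decile of highest. KEAP1 (60.3% GC) and MAFK lay close to that trend, with a trend value of -0.20 at the GC content of KEAP1 and -0.27 at that of MAFK. SQSTM1, at 58.0% GC, lay far above it, rising by 0.30 where the trend value was -0.16. BACH1 and CUL3 sat near the GC-poor end, at trend values of 0.14 and 0.15. With each library's GC trend removed, SQSTM1 went to 0.47 (SE 0.05; limma adjusted p = 0.000397) and was the 1 member called, where 0.0934% of all genes were called with this correction. BACH1 went to 0.24 (SE 0.07), short of the threshold (adjusted p = 0.385 in limma), with its compound libraries still above both DMSO libraries, and NBR1 went to 0.16 (SE 0.05; adjusted p = 0.479).

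Correction turned the sign of 6 of the 10 genes, none of which was called either way. NFE2L1 went from -0.04 to 0.08, MAFG from -0.02 to 0.14, MAFF from -0.02 to 0.22, MAFK from -0.23 to 0.04 and KEAP1 from -0.16 to 0.04, while CUL3 went from 0.05 to -0.10. After it 9 of 10 log2 fold changes were positive, against 50.8% of all tested genes and 55.3% of genes at this level. The median was 0.11 over the 10 genes, 0.00 over all genes tested and 0.01 over genes at this level. The lower KEAP1 and MAFK values with the compound thus moved together with GC content, and the part of GC content in them was not tested beyond this correction. For NFE2L2 (45.6% GC) the value went from 0.12 to 0.08, and its groups overlapped after the correction.

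**Figure D3:**
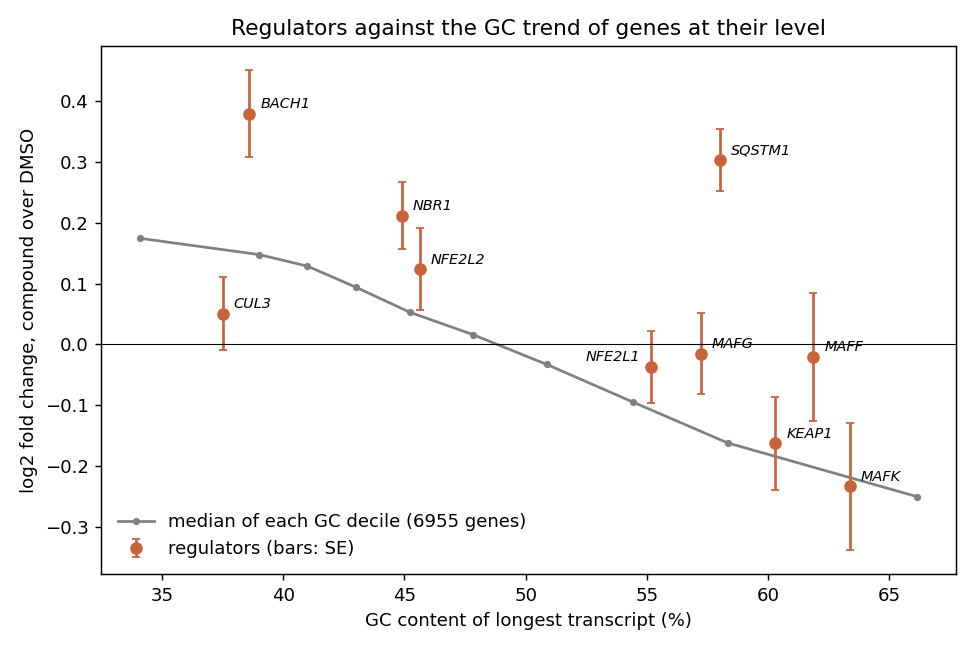
Log2 fold change (compound over DMSO, bars are the SE from limma) of the 10 genes against the GC content of their longest transcript, with the median of each GC decile of the 6955 genes at their level as a line, drawn at the middle of the decile's GC range. SQSTM1 stands above the falling line by more than any other member, and KEAP1 and MAFK lie close to it.

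**Figure D4:**
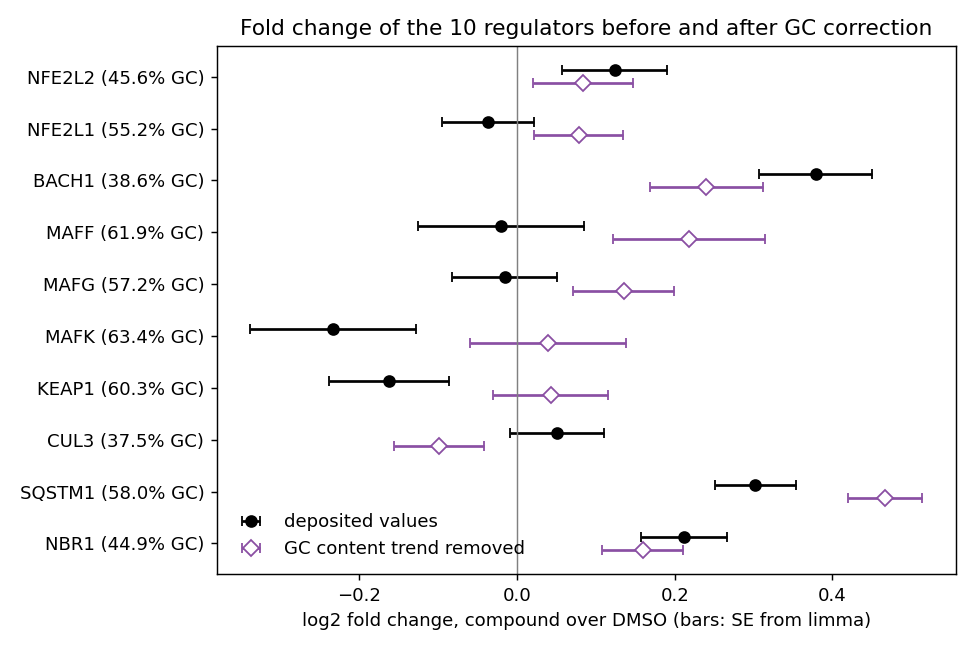
Log2 fold change (compound over DMSO) of each gene with the deposited values (filled circles) and with each library's GC content trend removed (open diamonds), bars showing the SE from limma. SQSTM1 moves up from 0.30 to 0.47 and BACH1 down from 0.38 to 0.24, and 6 genes cross the line at 0.

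Ratios within a library do not depend on how libraries are scaled. Of 11 ratios computed, 4 were of genes under 3 percentage points apart in GC content and are given first, and the others were 4.63 to 22.8 points apart. The SQSTM1 to KEAP1 ratio per length, 2 genes 2.27 percentage points apart in GC content, was 2.03 and 2.24 with DMSO, against 2.93 and 2.94 with the compound. Its log2 difference of 0.46 was larger than the gap of 0.14 between the DMSO libraries. SQSTM1 over MAFG (0.795 points apart) went from 3.33 and 3.17 to 4.12 and 3.99. The BACH1 to CUL3 ratio (1.09 points apart) went from 0.609 and 0.634 to 0.809 and 0.754, a log2 difference of 0.33 against gaps of 0.06 and 0.10 within groups. By contrast NBR1 over NFE2L2 (0.726 points apart) was 1.22 and 1.28 with DMSO, against 1.38 and 1.29 with the compound, a log2 difference of 0.09 no larger than the gap between the compound libraries. Repressor over activator, as BACH1 over NFE2L2 per length and 7.03 points apart in GC content, was 0.37 and 0.402 with DMSO, against 0.488 and 0.434 with the compound. The NFE2L2 to KEAP1 ratio was 0.777 and 0.824 with DMSO, against 0.926 and 1.03 with the compound, but these genes are 14.7 points apart in GC content. The ratios are a description, and no test of them was run.

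Several of the genes share bases with neighbours, and the strand setting of the counting is not given in the sources used here. SQSTM1 (ENSG00000161011, chr5:179806398-179838078, plus strand) overlaps MGAT4B and MRNIP on the opposite strand, with 105 and 1582 exon bases shared, the latter 20.7% of the SQSTM1 exon bases. Neither neighbour rose: MGAT4B, at 41.6% of the SQSTM1 value, had a log2 fold change of -0.19 (SE 0.06). MRNIP, at 5.57% of the SQSTM1 value, had one of -0.06 (SE 0.13). NFE2L2 (ENSG00000116044, chr2:177227595-177392697, minus strand) overlaps AGPS on the opposite strand. AGPS, an enzyme gene of ether lipid synthesis, went up from 2838 ± 159 to 3392 ± 107 (SD, n = 2 each), by 0.26 on the log2 scale (SE 0.06, adjusted p = 0.0453 in limma), and shares 54 exon bases with NFE2L2, or 0.903% of them. AC019080.1, a transcript on the same strand that shares 1054 exon bases (17.6%) with NFE2L2, was at 26.9 and 24.8 with DMSO, against 43.7 and 48.2 with the compound, without passing (log2 fold change 0.81, SE 0.32, limma adjusted p = 0.218), at 1.61% of the NFE2L2 value. MAFG shares 105 exon bases (2.01%) with SIRT7, at 36.0% of the MAFG value. It also shares 224 (4.29%) with AC145207.8 on the opposite strand, at 0.838% of the MAFG value. MAFK shares 809 exon bases with TMEM184A, whose value was 21.9% of that of MAFK, and NBR1 shares 463 with AC060780.1, at 7.06% of the NBR1 value. BACH1 (ENSG00000156273, chr21:29194071-29630751, plus strand) shares exon bases with GRIK1 alone of the genes in the table, 45 of them, at 0.628% of the BACH1 value.

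The genes whose pattern over the 4 libraries was most like that of SQSTM1 were TRAF6, ITGAV and NECTIN3. The measure was the root-mean-square difference of log2 deviations from the gene's own mean, over 10137 protein-coding genes at a mean of 100 or more, and it was 0.0043, 0.0091 and 0.011. The log2 fold changes of these 3 were 0.30, 0.29 and 0.31, near that of SQSTM1 because of the way the genes were picked. Their GC contents were 41.9%, 38.3% and 38.9%. After GC correction they stood at 0.21, 0.15 and 0.18 where SQSTM1 was at 0.47.

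Of 36 listed NRF2 targets, all measured, 4 rose and 0 fell (limma adjusted p under 0.05). Over all tested genes 0.694% were called higher, and 2.08% of genes at the level of the 10 regulators. The list was chosen with earlier results of these data known, so its counts and medians are a description only. Above 0 lay 27 of the 36, against 48.7% of all tested genes and 55.0% of genes at that level. The median log2 fold change was 0.14, against -0.01 and 0.02. TXNRD1, a thioredoxin reductase, was at 6672 and 6677 with DMSO, against 8800.2 and 9388 with the compound (log2 fold change 0.45), and the cystine transporter gene SLC7A11 rose by 0.43. TRIM16L, whose reads may be shared with TRIM16, rose by 0.48, and FTL, the ferritin light chain gene with close copies in the genome, by 0.18. NQO1, the quinone reductase gene, stood at 0.14 and GCLM, the modifier subunit of glutathione synthesis, at 0.15, short of the threshold. After GC correction 31 of the 36 were positive, against 50.8% of all tested genes, with a median of 0.17, and TXNRD1 and FTL passed, while GCLM went to 0.00. The summed value of the list was 108254 to 108396 with DMSO, against 119160 to 120088 with the compound. The SQSTM1 log2 fold change of 0.30 lies within the range of the 4 targets that rose.

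In the other lists 1 gene was called. Of 24 other measured regulators of NRF2, 0 were called in limma (median log2 fold change -0.03), CAND1, which exchanges CUL3 adaptors, standing at 0.19 and the ligase gene SYVN1 at -0.25. For NFE2L1 processing 0 of 7 measured genes were called, FBXW7 standing at 0.38, and of 31 proteasome subunit genes, which NFE2L1 drives, 0 were called and the median was 0.07, with PSMC6 and PSMD12 at 0.20 and 0.18. Among 18 autophagy receptors and partners of ATG8 proteins, the 1 gene called was RB1CC1, a scaffold of the autophagy-starting kinase that p62 recruits. RB1CC1 stood at 1567 ± 50.2 with DMSO, against 1981 ± 32.9 with the compound (SD, n = 2 each). The rise was 0.34 on the log2 scale (adjusted p = 0.0235 in limma). Its GC content was 37.6% and after GC correction it stood at 0.19 and missed the threshold. ULK1, a kinase that starts autophagy, named after its values were seen for its size, stood at -0.38 (SE 0.10, limma adjusted p = 0.055) and at -0.09 after GC correction. CUL3 adaptors gave 0 of 23, with KLHL21 at -0.22 and KLHL8 at 0.25. Across these lists other than the targets, 32 genes had an unadjusted p under 0.05 in limma. The lists hold 24, 7, 18, 31 and 23 measured genes, with SYVN1 in more than 1 of them. Of all 22486 tested genes 3752 had an unadjusted p under 0.05, so such values were common.

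**Figure D5:**
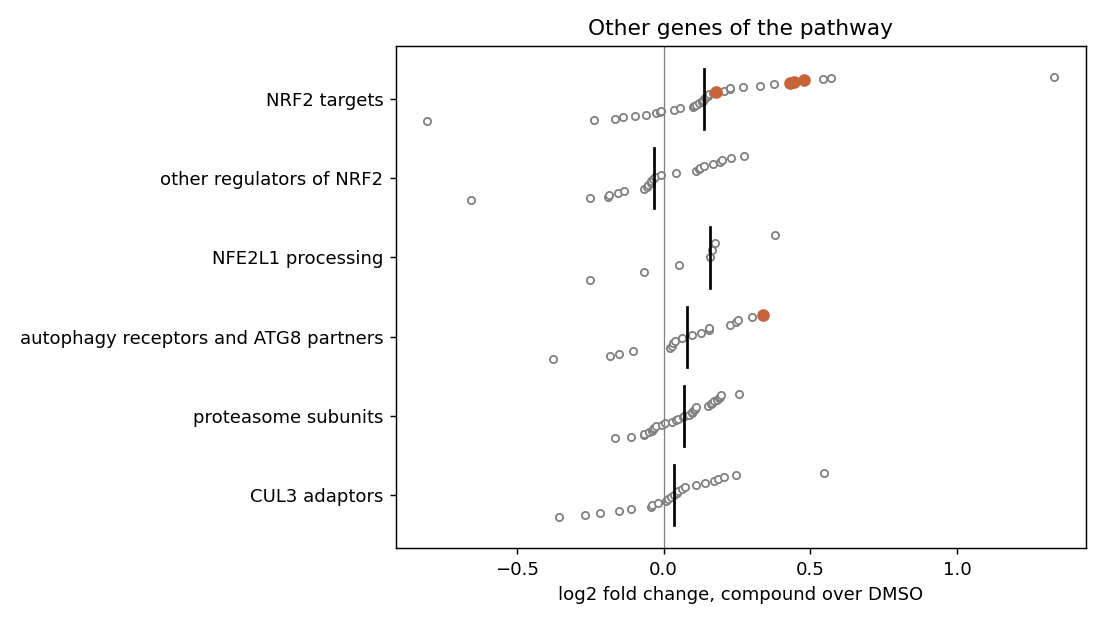
Log2 fold change (compound over DMSO, horizontal axis) of the measured genes of each pathway list, filled where the limma adjusted p was under 0.05, with the median as a bar. The filled points are TXNRD1, SLC7A11, TRIM16L and FTL among the NRF2 targets and RB1CC1 among the autophagy partners.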

How the data were processed

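The series was read from 1 deposited table of 26336 genes. Per library the authors deposited a scaled read count, treated here as signal. Divided by its column's lowest value above 0, each value came out whole to within 0.001 of its own size (100%). For high values that margin takes in any number, so the check bears on lower values only. A separate test of the low values did not accept whole reads in 2 of the 4 columns, so no count model was fitted. Columns named treatment and control were taken as W23-1006 and DMSO. Tools listed in the submitters' processing notes are DESeq2 1.20.0, featureCounts 1.5.0-p3, HISAT2 2.0.5, CASAVA and fastp, and the build is GRCh38; strand setting and annotation were not given in the sources used here. Per the file headers, the same table has a log2 fold change, a p-value and an adjusted p-value from the authors.

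The 22486 genes averaging 1 or more were fitted with limma 3.58.1 (R 4.3.3) on log2(value + 1), treatment as the only term, with a mean-variance trend, two-sided, adjusted over all genes at 0.05. Fold changes on this scale understate those of low genes. GC content came from the longest GENCODE release 29 transcript (99.9% of genes), whose gene coordinates equalled the table's for 99.98%. In the GC correction a loess curve (span 0.3) over genes averaging 5 or more on the log2 scale was subtracted from each library. The fit was tested on simulated data.

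The members and lists were chosen with earlier results of these data known. Named were all 10 members, the called genes of each list (at most 6, otherwise the 2 of smallest p), 4 classic NRF2 targets (NQO1, HMOX1, GCLM and TXNRD1), the 3 genes most like SQSTM1 and overlapping genes. The ratios were chosen after the values were seen, as were the markers named from 3 lists of 7 genes each. The leukocyte and endothelial list summed to 83.7 to 88.7 with DMSO and 84.5 to 121 with the compound, and the luminal list to 1393 to 1574 and 1304 to 1341. Promoter windows are from RefSeq (GRCh38.p14).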

Additional observations from a re-analysis of the deposited data

How the results depend on the processing

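Counts of limma calls moved with the setting, and the causes were not tested. Over all genes, 484 were called as deposited, 21 with GC correction, 826 with equal totals, 774 with gene length correction, 1427 at a mean value of at least 50, 1133 among protein-coding genes and 770 with a pseudocount of 5. Calls fell to 0 with no filter, no mean-variance trend or a pseudocount of 0.1 (3568, 1866 and 3515 genes at an unadjusted p under 0.05), and to 0 without any one library (1904 to 3112 at an unadjusted p under 0.05). Of the 10 regulators 2 were called as deposited, 1 with GC correction, and 0 under those same 7 settings (2 to 4 at an unadjusted p under 0.05). NBR1 was called in 6 of 15 alternatives without a replicate block, SQSTM1 in 8 and BACH1 in 7. NRF2 targets called were 4 as deposited, 2 with GC correction, 8 with length correction, 7 at a mean of at least 50 (6 higher, 1 lower), and 0 in the 7 settings (3 to 14 at an unadjusted p under 0.05). The other listed genes gave 1, 0 with GC correction (13 at an unadjusted p under 0.05), 3 with equal totals, 2 with length correction, 10 at a mean of at least 50, 8 among protein-coding genes, 3 with a pseudocount of 5, and 0 in the 7 settings (4 to 31 at an unadjusted p under 0.05). Of all tested genes 1631 had an unadjusted p under 0.05 in limma with GC correction. Median-of-ratios and trimmed-mean scaling kept these counts within 1.5 times.

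Signs changed with GC correction, with or without the block, for NFE2L1 (0.078), MAFF (0.22), MAFG (0.14), MAFK (0.039), KEAP1 (0.043) and CUL3 (-0.099), leaving 9 of 10 genes above 0 in place of 5. After GC correction 50.8% of all tested genes were above 0. Without DMSO replicate 1, NFE2L1 went to 0.036 and MAFF to 0.010, and without W23-1006 replicate 2 MAFF went to 0.12. Leaving out each library in turn gave -0.11 to 0.036 for NFE2L1 and -0.16 to 0.12 for MAFF. SQSTM1, BACH1, NBR1 and NFE2L2 stayed above 0 in all 17 alternatives, from 0.27 to 0.47, 0.24 to 0.41, 0.16 to 0.24 and 0.06 to 0.18. With a lone library in a group, its spread was taken from the other group. The relaxed ARE core gave 6 of 9 genes in place of 2, and 4 of 10 genes kept their rank of level with the longest transcript.

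The labels number the libraries 1 and 2 in each group but do not say that a number marks a shared culture, and same-numbered libraries deviated with a correlation of 0.03 across 11815 genes, so the pairing is by number only. With a replicate block 1731 genes were called, 8 NRF2 targets (7 higher, 1 lower) and 12 other listed genes. With the replicate block and GC correction, 200 genes and 1 regulator (SQSTM1) were called.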
